A study of Homo sapiens with 6 samples.

Results

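The genes described here are 32 genes of cholesterol and fatty acid synthesis and their regulators, chosen by name for their role. Earlier results of these data were known when they were chosen. Of these, 30 had a named probe set among the 17687 named genes of the series, and the expression of FDFT1 and FADS1 was not analysed here. The 30 measured genes were divided into 22 sterol genes and 8 fatty acid genes, where SREBF1 was put with the fatty acid genes. Expression was measured once per cell line and condition on 6 Clarion S arrays, in 3 human non-small cell lung cancer lines. PC-9 and HCC827 are labelled EGFR mutant (EGFR is the epidermal growth factor receptor), and each gave 1 array after 6 hours with 0.01 µM erlotinib, an inhibitor of the EGFR kinase, and 1 control array. H322 is labelled wild-type and gave 1 array after 6 hours with EGF, the receptor's ligand, labelled 100 µg/ml, and 1 control array. The culture medium of all lines is described as containing TNFa, an inflammatory cytokine, and the labels do not say whether the controls had it, so its effect and that of the treatments cannot be told apart if they did not. The labels do not name the EGFR mutations or say whether separate cultures were used.

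Cells build cholesterol from acetyl-CoA through the mevalonate pathway and a long series of sterol steps, and they build fatty acids from the same precursor. Both pathways are transcribed under the SREBP factors, made from SREBF1 and SREBF2, of which the first acts mostly on fatty acid genes and the second mostly on sterol genes. SCAP escorts the SREBP precursors from the endoplasmic reticulum to the Golgi, where they are cleaved and activated, and INSIG proteins hold SCAP back when sterols are plentiful. Growth factor signalling through PI3K, AKT and mTORC1 is known to raise SREBP activity.

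Levels are given as log2(intensity + 1) of the deposited probe set intensities, and changes as differences of these values. A gene counts as above the negative controls when it exceeds the 95th percentile of these probe sets on an array. All 30 genes did so on all 6 arrays, the lowest value being 8.35 against percentiles between 6.92 and 7.47. Erlotinib was tested with limma on the 4 PC-9 and HCC827 arrays, with the lines as replicates (n = 2) and the cell line in the model. Each line taken alone has 1 array per condition, so its changes carry no test. RNA came from whole cultures, so a smaller share of expressing cells and less RNA per cell cannot be told apart. All 6 epithelial markers were above the negative controls on every array (summed intensity 314880 to 403133), 0 of 4 measured leukocyte markers on any, and at most 1 of 4 fibroblast and 1 of 4 endothelial markers. As a check of the treatments, FOSL1, an output of ERK signalling, fell by 5.13 ± 0.18 (limma adjusted p = 9.2e-05) with erlotinib and had 2.20 with EGF in H322. DUSP6, a phosphatase gene induced by ERK, fell with erlotinib in the test over both lines (limma adjusted p = 0.00861). The HCC827 decrease of DUSP6 was 9.91-fold, the PC-9 decrease was at least 9.57-fold, and its change with EGF was 0.76. EGFR itself had -0.23 ± 0.16 with erlotinib (limma adjusted p = 0.575). The PC-9 erlotinib array of DUSP6 was below the negative controls, so its fold is a bound, taken at their 95th percentile.

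With erlotinib, 1 of the 30 genes passed the limma threshold, an adjusted p under 0.05. ELOVL6, the elongase that lengthens palmitate, fell by 1.44 ± 0.19 in log2 units, or 2.71-fold (limma adjusted p = 0.0197, where ± is the moderated SE over n = 2 lines). No sterol gene passed the threshold of 0.05 (limma, 0 of 22, with 4 at an unadjusted p under 0.05), and none of the 30 rose past it. At an unadjusted p under 0.05 were 5 of the 30, against 22.6% of genes that exceeded the negative controls on each of the 4 arrays (14.4% of all named genes). Of genes exceeding the controls on each array, 1.63% fell and 1.06% rose past the threshold (0.916% and 0.565% of all named genes), so 1 call among 30 is close to the background. The median change of the sterol genes was -0.13, that of the fatty acid genes with SREBF1 -0.13, and that of all genes above the negative controls on the 4 arrays 0.03. Of the 30, 17 were lower in both lines, 4 higher in both and 9 opposite in sign, where 30.3% of genes detected in both lines were lower in both and 37.7% higher in both. For 27 of the 30 genes the 95% interval of the mean change lay within 2-fold in either direction, as it did for 6388 of the 7796 genes above the negative controls on the 4 arrays. The plot of mean changes shows these intervals.

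**Figure D1:**
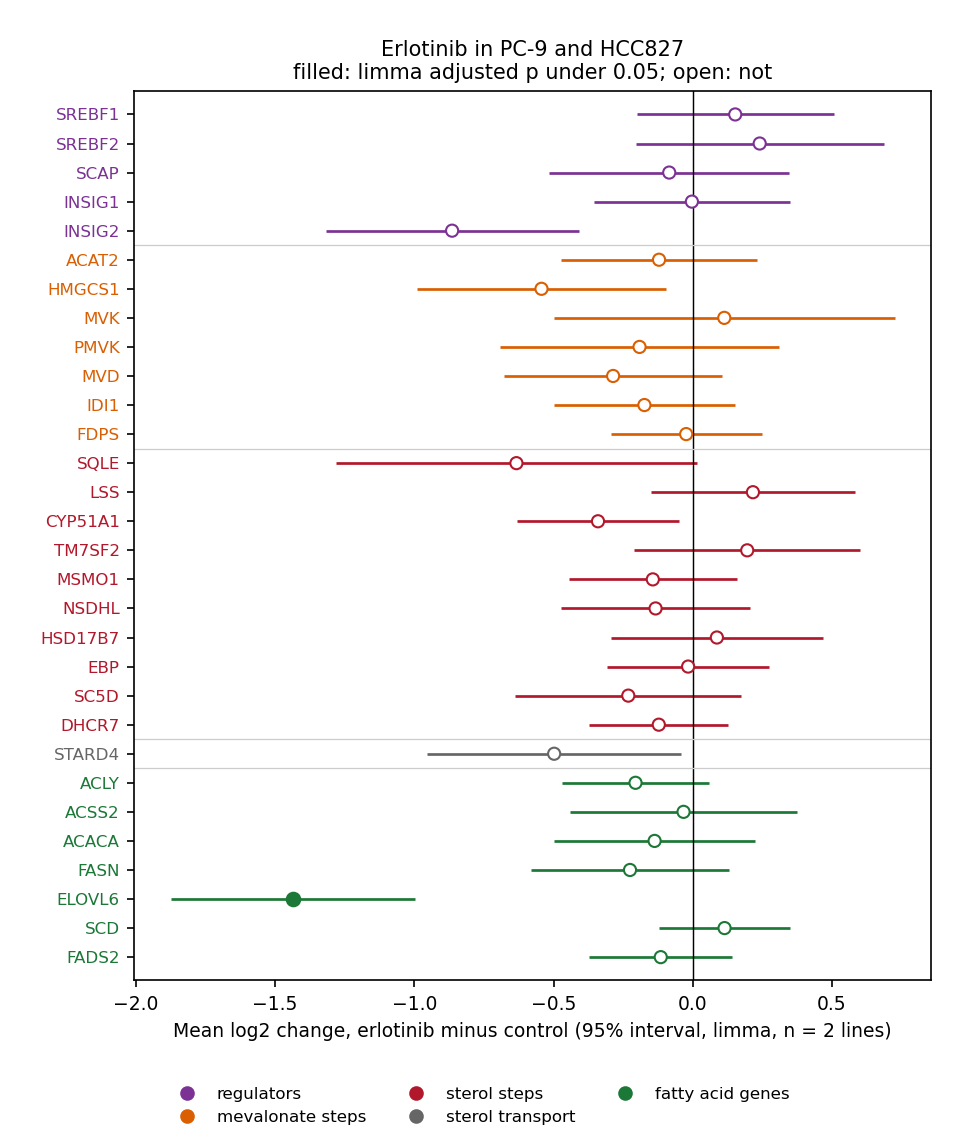
Mean log2 change with erlotinib over PC-9 and HCC827 for each gene (horizontal axis), with the 95% interval from limma (n = 2 lines); genes run down the page by role. ELOVL6, at -1.44, is the only filled point, and INSIG2, at -0.86, is the next lowest.

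ELOVL6 stood at 8.35 in PC-9 and 12.08 in HCC827 with erlotinib, against 9.99 in PC-9 and 13.31 in HCC827 on the control arrays. It was lower with erlotinib in each line, although the HCC827 array with erlotinib was still above the PC-9 control. The decrease was 3.13-fold in PC-9, where 0.962% of detected genes had a lower change, and 2.34-fold in HCC827, where 2.24% did. A detected gene is one that exceeds the negative controls on 1 or both arrays of the pair. ELOVL6 was the only one of the 30 at least 1.5-fold lower in both lines, as were 4.09% of genes detected in both. The call was lost without a trend of the spread on level (limma adjusted p = 0.131) and without the cell line in the model (limma adjusted p = 1.0), and the adjusted p ranged from 4.64e-10 to 1.0 over the alternatives.

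INSIG2, whose product retains SCAP in the endoplasmic reticulum, had the next lowest mean change. It stood at 11.73 in PC-9 and 10.47 in HCC827 with erlotinib, against 12.29 in PC-9 and 11.64 in HCC827 on the control arrays. The mean change was -0.86 ± 0.20 and did not pass (limma adjusted p = 0.0858, 0.000253 to 1.0 over the alternatives). The array with erlotinib was below the control in both lines, by 1.47-fold (PC-9) and 2.25-fold (HCC827). INSIG1, the paralogue that SREBPs are known to induce, stood at 12.20 in PC-9 and 11.99 in HCC827 with erlotinib, against 12.26 and 11.94 on the same lines' control arrays. Its mean change was -0.003 ± 0.15, with a 95% interval from -0.36 to 0.35 (limma adjusted p = 0.995).

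ELOVL6, INSIG2 and HMGCS1 are among the genes with the lowest mean changes. MVK had changes of opposite sign in PC-9 and HCC827, and SREBF2 had -0.03 in PC-9 and 0.51 in HCC827. The promoter stretches of these genes are shown next as context for where each gene starts. They come from RefSeq (GRCh38.p14), read 5′ to 3′ on the gene's strand, and cover the 150 bases before the start site farthest upstream. Capitals mark matches on either strand to a sterol regulatory element core (TCACNCCAC), a CCAAT box (CCAAT) or an Sp1 box (GGGCGG). ELOVL6 lies at chr4:110198616-110198765 on the minus strand, INSIG2 at chr2:118088321-118088470 on the plus strand and HMGCS1 at chr5:43313413-43313562 on the minus strand. MVK lies at chr12:109573644-109573793 and SREBF2 at chr22:41832955-41833104, both on the plus strand.
ELOVL6: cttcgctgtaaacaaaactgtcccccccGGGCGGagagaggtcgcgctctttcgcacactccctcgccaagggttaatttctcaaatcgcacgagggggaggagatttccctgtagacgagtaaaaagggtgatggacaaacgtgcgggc
INSIG2: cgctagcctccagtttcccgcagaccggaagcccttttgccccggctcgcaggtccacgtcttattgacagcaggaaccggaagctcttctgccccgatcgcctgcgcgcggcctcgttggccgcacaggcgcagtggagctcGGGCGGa
HMGCS1: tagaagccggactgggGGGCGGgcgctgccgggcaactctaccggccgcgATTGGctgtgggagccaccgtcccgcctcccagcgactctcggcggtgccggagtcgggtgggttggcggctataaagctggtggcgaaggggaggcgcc
MVK: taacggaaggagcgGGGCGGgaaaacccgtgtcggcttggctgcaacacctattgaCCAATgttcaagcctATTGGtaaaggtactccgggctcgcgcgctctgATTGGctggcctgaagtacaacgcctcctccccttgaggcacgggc
SREBF2: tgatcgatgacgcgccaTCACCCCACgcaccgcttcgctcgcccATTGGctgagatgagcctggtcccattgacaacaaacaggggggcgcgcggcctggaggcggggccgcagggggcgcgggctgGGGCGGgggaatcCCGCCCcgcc

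The SREBF2 stretch held the only match to the sterol regulatory element core among the genes, 133 bases before the start, in the form TCACCCCAC. Whole windows ran from 250 bases before to 50 after each start, and 28 of the 32 genes had at least 1 (9 had several). FADS1, whose expression was not analysed, is among these 28. The sterol regulatory element core was found in 1 of these 28 genes, against 1.13% of all 35116 promoter windows. Of genes above the negative controls on all 6 arrays, 1.48% held it. The CCAAT box was found in 21 of 28 (75%), against 34.6% of all windows and 44.2% of genes above the negative controls on all 6 arrays. The Sp1 box was found in 27 of 28 (96.4%), against 45.0% of all windows and 78.5% of those genes. An E box (CACGTG) was found in 4 of 28, namely INSIG1, LSS, SC5D and SCAP, against 7.26% of all windows and 13.2% of those genes, a share near theirs. Shares of windows count each window singly, while a gene counts with a match in any of its windows. Counted by gene, 39.7% of all 27305 genes with a window held a CCAAT box and 48.3% an Sp1 box. The sterol regulatory element core was held by 1.39% of them and an E box by 8.77%. ELOVL6 and INSIG2 had no CCAAT box in their windows, and MVK had 5, 3 of them in the stretch shown. A match describes the letters only, and the absence of one says nothing of a factor's binding elsewhere.

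In the single lines, genes were counted when they differed by at least 1.5-fold and the higher array was above its negative controls. In PC-9 with erlotinib 1 of 30 was lower, ELOVL6, and 1 higher, MVK, against 9.22% lower and 7.84% higher among detected genes. In HCC827 with erlotinib 4 of 30 were lower, namely SQLE, ELOVL6, INSIG2 and HMGCS1, and 0 higher, against 9.83% lower and 14.8% higher among detected genes. In H322 with EGF 0 of 30 were lower and 0 higher, against 1.64% and 2.23%. At 2-fold, 1 was lower and 0 higher in PC-9 (background 3.44% and 1.79%), 3 were lower and 0 higher in HCC827 (3.63% and 5.02%), and 0 were lower or higher in H322 (0.154% and 0.209%). At a smaller log2 change of 0.32, 5 were lower and 1 higher in PC-9 (20.1% and 19.3%), and 9 lower and 1 higher in HCC827 (19.2% and 29.4%).

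**Figure D2:**
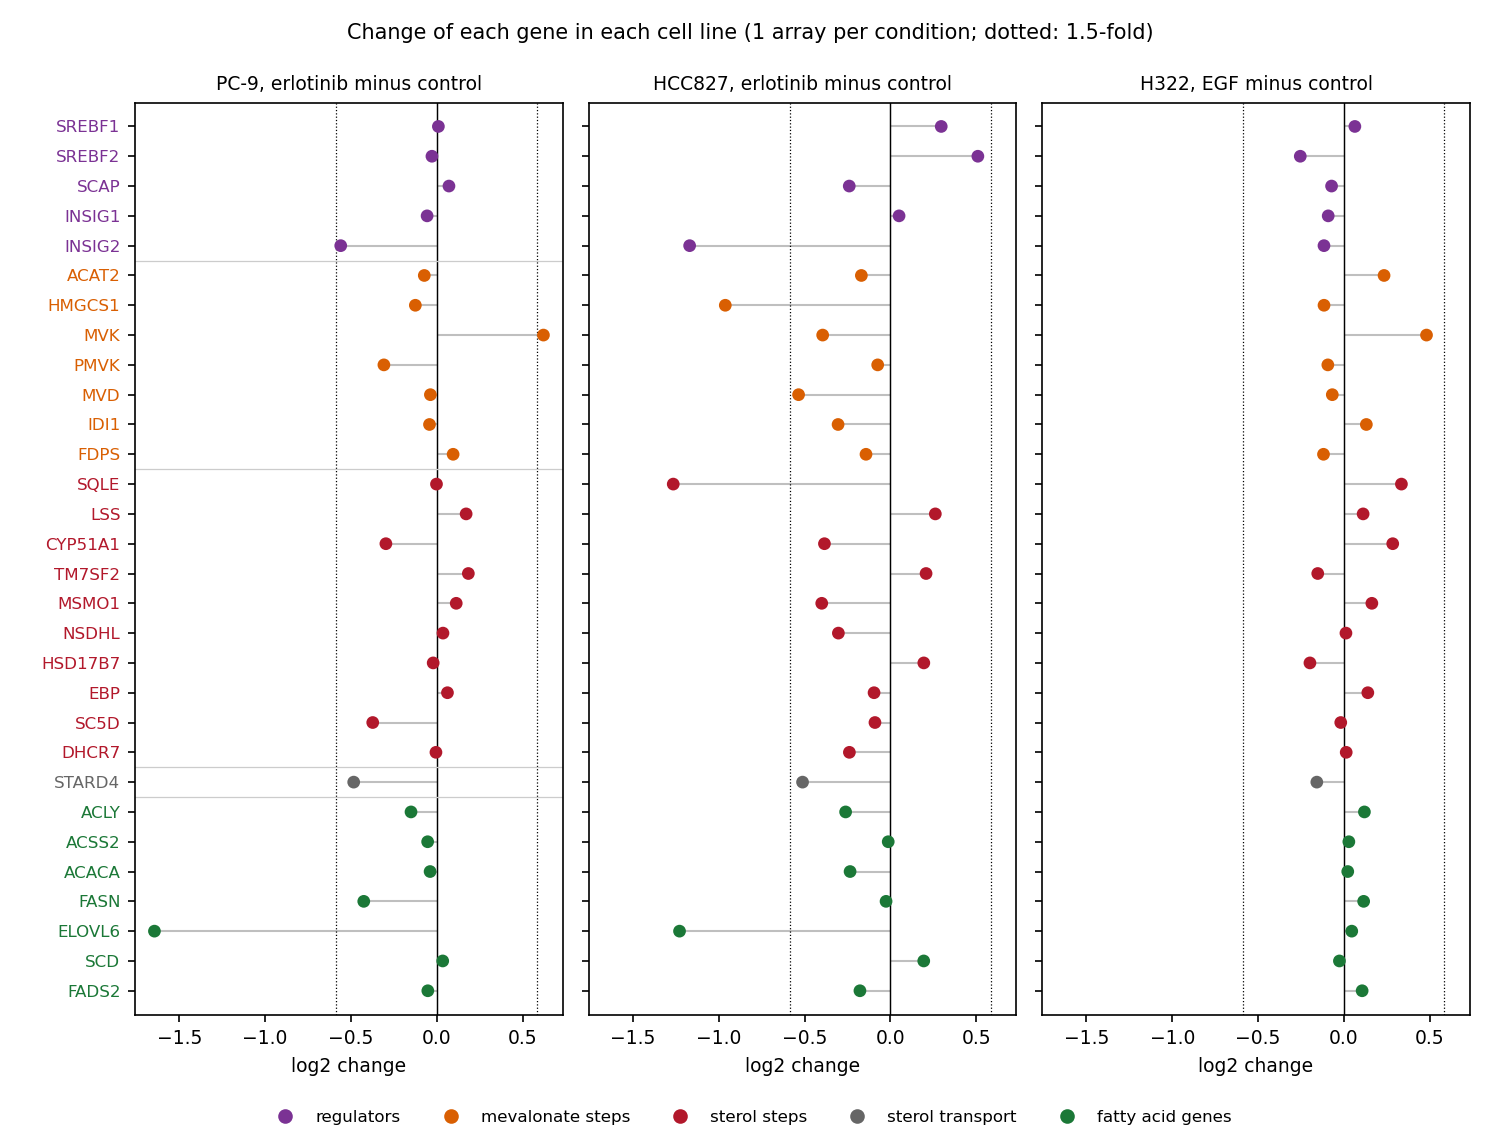
Log2 change of each gene (horizontal axis) in PC-9 and HCC827 with erlotinib and in H322 with EGF, each against the control array of the line (1 array per condition); dotted lines mark 1.5-fold. SQLE is at -1.26 in HCC827 and near 0 in PC-9, and no gene reaches a dotted line in H322.

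Among the regulators, the SREBP genes had changes near 0 in PC-9. SREBF2 stood at 12.34 in PC-9 and 10.60 in HCC827 with erlotinib, against 12.37 in PC-9 and 10.09 in HCC827 on the control arrays. The HCC827 array with erlotinib was above its control by 0.51, the highest change of the 30 genes there, and the mean change of 0.24 ± 0.19 did not pass (limma adjusted p = 0.651). SREBF1 stood at 12.52 in PC-9 and 12.62 in HCC827 with erlotinib, against 12.51 and 12.33 on the same lines' control arrays, with a mean change of 0.15 ± 0.15 (limma adjusted p = 0.741). SCAP had 0.07 in PC-9 and -0.24 in HCC827.

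The 7 measured genes of the mevalonate steps, which lead from acetyl-CoA to farnesyl diphosphate, had a median change of -0.04 in PC-9 and -0.30 in HCC827, against 0.01 and 0.08 for all detected genes. All 7 were lower with erlotinib in HCC827, and 5 in PC-9, where 42.6% (HCC827) and 49.4% (PC-9) of detected genes were lower. HMGCS1, the synthase that forms HMG-CoA, stood at 14.85 in PC-9 and 12.74 in HCC827 with erlotinib, against 14.97 in PC-9 and 13.71 in HCC827 on the control arrays. The lines stood apart, with a decrease of 1.09-fold (PC-9) and 1.95-fold (HCC827), and the mean of -0.54 ± 0.19 did not pass (limma adjusted p = 0.254). MVD, the decarboxylase that makes isopentenyl diphosphate, had -0.04 in PC-9 and -0.53 in HCC827, and IDI1, the isomerase after it, had -0.04 and -0.30 in those lines.

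MVK, the mevalonate kinase, had changes of opposite sign in the EGFR-mutant lines. It stood at 11.07 in PC-9 and 9.52 in HCC827 with erlotinib, against 10.45 in PC-9 and 9.91 in HCC827 on the control arrays. The PC-9 array with erlotinib was 1.54-fold above its control and the HCC827 array 1.31-fold below, and the mean was 0.11 ± 0.26 (limma adjusted p = 0.904). ACAT2, which condenses acetyl-CoA, had -0.07 in PC-9 and -0.17 in HCC827. PMVK, the kinase after MVK, had -0.31 and -0.07 in those lines, and FDPS, which makes farnesyl diphosphate, had 0.09 and -0.14.

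The 10 measured genes of the sterol steps had a median change of 0.02 in PC-9 and -0.17 in HCC827. SQLE, the epoxidase of squalene and a rate-limiting enzyme, stood at 13.63 in PC-9 and 9.08 in HCC827 with erlotinib, against 13.63 in PC-9 and 10.34 in HCC827 on the control arrays. The PC-9 arrays were alike at this precision, and SQLE was 2.40-fold lower with erlotinib in HCC827, where 2.03% of detected genes had a lower change. The mean of -0.63 ± 0.28 did not pass (limma adjusted p = 0.362), and the 95% interval ran from -1.28 to 0.01.

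CYP51A1, the lanosterol demethylase, was lower by like amounts in both lines, at -0.30 in PC-9 and -0.38 in HCC827, and its mean of -0.34 ± 0.12 did not pass (limma adjusted p = 0.272). Lanosterol synthase, LSS, stood at 12.62 in PC-9 and 11.05 in HCC827 with erlotinib, against 12.45 in PC-9 and 10.79 in HCC827 on the control arrays. TM7SF2, a sterol reductase, stood at 11.49 in PC-9 and 10.47 in HCC827 with erlotinib, against 11.31 in PC-9 and 10.26 in HCC827 on the control arrays. LSS and TM7SF2 were a little higher with erlotinib in both lines, and neither passed (limma adjusted p = 0.612 and 0.699).

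The oxidase gene MSMO1, the dehydrogenase gene NSDHL and the last reductase of the pathway, DHCR7, had changes of 0.11, 0.04 and -0.01 in PC-9, against -0.40, -0.30 and -0.24 for the same genes in HCC827. HSD17B7, the sterol ketone reductase, had -0.02 in PC-9 and 0.19 in HCC827, and EBP, the sterol isomerase, had 0.06 and -0.10. SC5D, the sterol desaturase, had -0.37 in PC-9 and -0.09 in HCC827. STARD4, a carrier of cholesterol between membranes, was lower by nearly the same amount in both lines, at -0.48 in PC-9 and -0.51 in HCC827. Its mean of -0.50 ± 0.20 did not pass (limma adjusted p = 0.309).

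Over the 22 sterol genes the median change was -0.03 in PC-9, with 14 lower, and -0.24 in HCC827, with 17 lower, against 49.4% and 42.6% of detected genes lower in those lines. The change in HCC827 was below that in PC-9 for 15 of the 22, and for 3347 of the 7796 genes above the negative controls on the 4 arrays. With 1 array per condition and line, the difference between the lines was not tested.

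**Figure D3:**
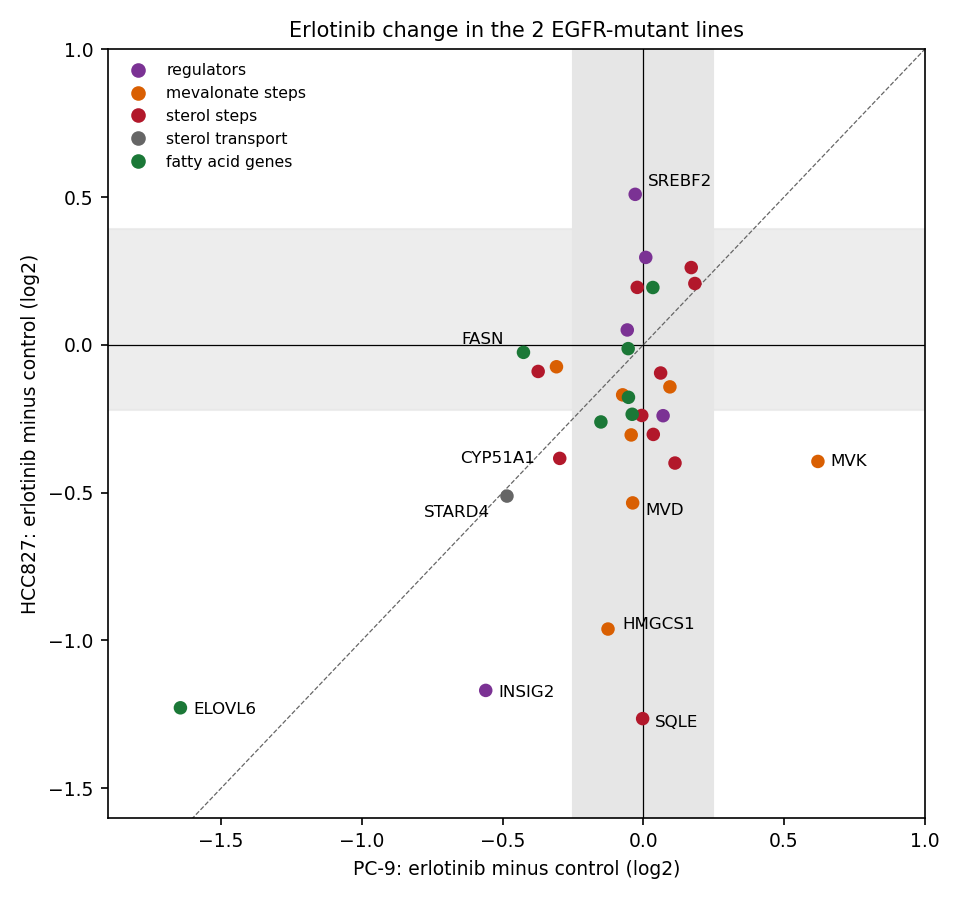
Log2 change with erlotinib in PC-9 (horizontal) against HCC827 (vertical), 1 point per gene; grey bands span the middle quartiles of all detected genes in each line and the dashed line marks equal change. ELOVL6 is low in both lines, SQLE and HMGCS1 are low in HCC827 alone by value, and MVK is at 0.62 in PC-9 and -0.39 in HCC827.

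Apart from ELOVL6, the fatty acid enzyme genes had mean changes between -0.23 and 0.11. FASN, the synthase that makes palmitate, stood at 12.80 in PC-9 and 13.01 in HCC827 with erlotinib, against 13.22 in PC-9 and 13.03 in HCC827 on the control arrays. The erlotinib array was below the control by 1.34-fold (PC-9) and 1.02-fold (HCC827), and the mean of -0.23 ± 0.15 did not pass (limma adjusted p = 0.579). SCD, the desaturase of stearate and palmitate, stood at 15.91 in PC-9 and 15.72 in HCC827 with erlotinib, against 15.88 in PC-9 and 15.53 in HCC827 on the control arrays. Its mean was 0.11 ± 0.10, with a 95% interval from -0.12 to 0.35 (limma adjusted p = 0.698).

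FADS2, a desaturase of polyunsaturated fatty acids, stood at 16.54 in PC-9 and 13.05 in HCC827 with erlotinib, against 16.60 in PC-9 and 13.22 in HCC827 on the control arrays. ACLY, which makes acetyl-CoA from citrate, had -0.15 in PC-9 and -0.26 in HCC827, and ACACA, the carboxylase that makes malonyl-CoA, had -0.04 and -0.23. ACSS2, which makes acetyl-CoA from acetate, had -0.05 in PC-9 and -0.01 in HCC827. None of these 4 passed (limma adjusted p between 0.478 and 0.963).

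EGF in H322 gave small changes throughout. The median change was -0.04 for the sterol genes and 0.05 for the fatty acid genes with SREBF1, against 0.01 for all detected genes, and 12 of the 22 sterol genes were lower (48.4% of detected genes). At a log2 change of 0.32, 0 of the 30 were lower and 2 higher, against 8.63% and 10.3% of detected genes. These 2 were MVK, at 9.66 with EGF against 9.18 in the control, and SQLE, at 11.61 with EGF against 11.27 in the control. For MVK, 3.93% of detected genes had a higher change, and for SQLE 9.56%. ELOVL6 stood at 10.48 with EGF against 10.44 in the control, and FASN at 11.90 with EGF against 11.79 in the control. For both of these fatty acid genes the EGF array was slightly above its control. HMGCS1 stood at 12.57 with EGF against 12.69 in the control, INSIG2 at 9.53 against 9.65, and INSIG1 at 8.73 against 8.83. For these sterol genes the EGF array was slightly below its control. The lowest change was that of SREBF2, at 10.83 with EGF against 11.08 in the control. SREBF1 stood at 12.85 with EGF against 12.79 in the control, SCD at 15.03 against 15.05, FADS2 at 13.06 against 12.95, LSS at 9.90 against 9.78 and TM7SF2 at 14.16 against 14.31.

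**Figure D4:**
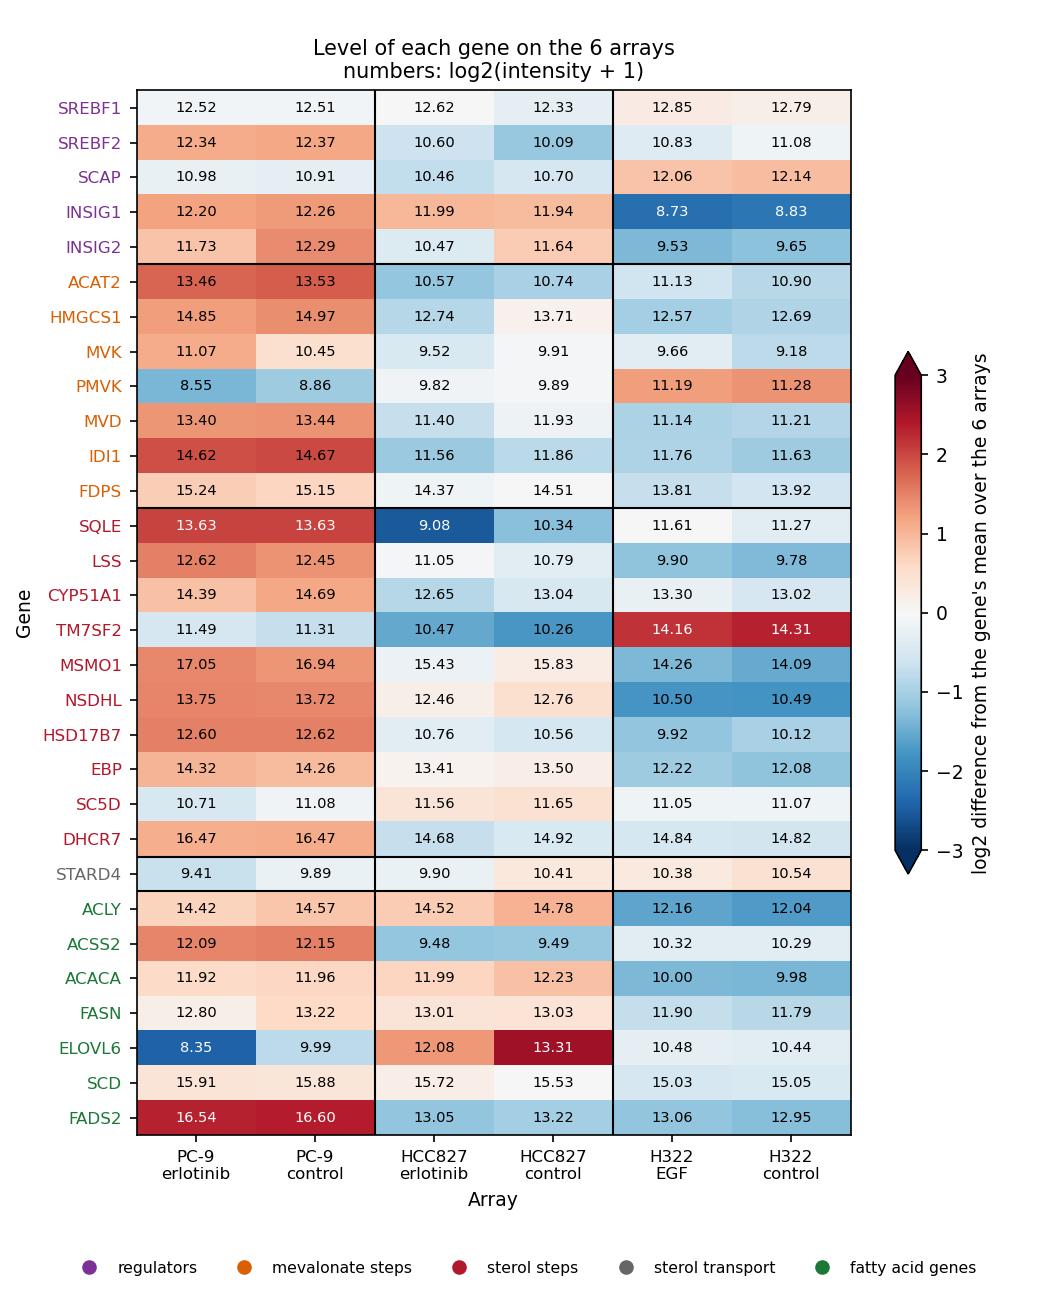
Level of each gene, as log2(intensity + 1), on the 6 arrays; colour shows the difference from the gene's own mean over the arrays. Columns of 1 line resemble each other more than columns of 1 treatment, and most sterol genes are reddest in PC-9.

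The largest differences among the arrays lay between the lines. On the control arrays 17 of the 22 sterol genes had their highest level in PC-9, where 33.5% of detected genes did. The sterol genes of PC-9 were above those of HCC827 by a median of 1.08, or 2.11-fold, and above those of H322 by a median of 2.20, or 4.61-fold. At least 2-fold higher in PC-9 were 12 of 22 against HCC827 and 17 of 22 against H322, where 22.2% and 21.1% of detected genes were, and at least 2-fold lower were 1 and 3, where 19.1% and 22.6% were. The medians over all detected genes were 0.04 for PC-9 over HCC827 and -0.06 for PC-9 over H322. HCC827 was above H322 by a median of 0.51 for the sterol genes, with 7 at least 2-fold higher and 3 lower, where 18.9% and 22.5% of detected genes were. Each line gave 1 control array, so none of these differences was tested.

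SQLE stood at 13.63 in PC-9, 10.34 in HCC827 and 11.27 in H322, and was 9.76-fold higher in PC-9 than in HCC827. IDI1 was 6.98-fold and ACAT2 6.92-fold higher in PC-9 than in HCC827, and HCC827 differed from H322 by 0.24 for IDI1 and -0.16 for ACAT2. NSDHL was 9.34-fold and MSMO1 7.17-fold higher in PC-9 than in H322, and HCC827 lay between the other lines for both. For INSIG1, H322 stood apart: the PC-9 control was 10.8-fold above it and the HCC827 control 8.63-fold, and PC-9 exceeded HCC827 by 0.32 in log2 units. SREBF2 was 4.85-fold higher in PC-9 than in HCC827 and 2.44-fold higher in PC-9 than in H322. SREBF1 varied least of the regulators, with 12.51 in PC-9, 12.33 in HCC827 and 12.79 in H322.

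Exceptions to this order were TM7SF2, PMVK, SCAP, STARD4 and SC5D. TM7SF2 was 8.02-fold lower in PC-9 than in H322 and 16.6-fold lower in HCC827 than in H322, the widest range over the control arrays of all 30 genes. PMVK was 5.37-fold lower in PC-9 than in H322, and SCAP 2.35-fold lower. STARD4 stood at 9.89 in PC-9, 10.41 in HCC827 and 10.54 in H322, and SC5D at 11.08 in PC-9, 11.65 in HCC827 and 11.07 in H322. Among the fatty acid genes FADS2 was 10.3-fold higher in PC-9 than in HCC827 and 12.5-fold higher in PC-9 than in H322. ELOVL6 ran the other way and was 9.93-fold lower in PC-9 than in HCC827. ACLY and ACACA were 5.78-fold and 3.94-fold higher in PC-9 than in H322, and 6.69-fold and 4.74-fold higher in HCC827 than in H322.

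**Figure D5:**
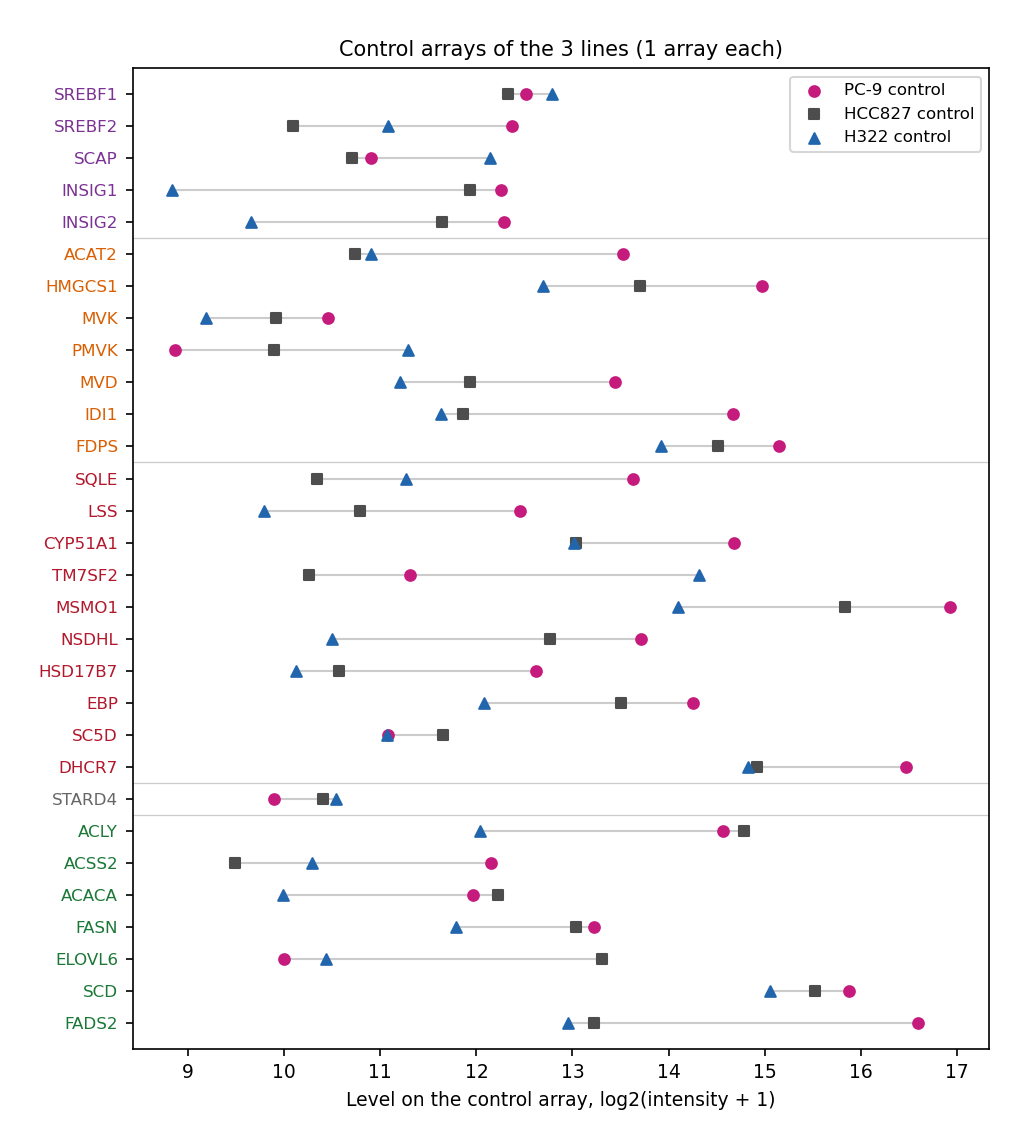
Level of each gene on the control array of PC-9 (circles), HCC827 (squares) and H322 (triangles), as log2(intensity + 1), with 1 array per line; gene names are coloured by role, from regulators at the top to fatty acid genes at the bottom. PC-9 has the rightmost point for 21 of the 30 genes, and H322 the leftmost for 20. Of the 7796 genes above the negative controls on every PC-9 and HCC827 array, 2660 had their highest control level in PC-9 and 2603 their lowest in H322.

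Further genes of these pathways were taken from a list of 49, of which 36 were measured. None passed with erlotinib (limma, 0 of 36, with 6 at an unadjusted p under 0.05, against 14.4% of all named genes). ABCA1, which exports cholesterol from cells, stood at 9.96 in PC-9 and 10.54 in HCC827 with erlotinib, against 8.91 in PC-9 and 9.45 in HCC827 on the control arrays. The erlotinib array was above the control by 2.08-fold (PC-9) and 2.12-fold (HCC827), and its mean of 1.07 ± 0.20 missed the threshold (limma adjusted p = 0.0510, 0.000216 to 1.0 over the alternatives). SCD5, another stearoyl-CoA desaturase, stood at 13.76 in PC-9 and 8.82 in HCC827 with erlotinib, against 13.02 in PC-9 and 7.70 in HCC827 on the control arrays. Its mean of 0.93 ± 0.19 also missed it (limma adjusted p = 0.0638).

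At least 1.5-fold lower with erlotinib were 1 of the 36 genes in PC-9 and 3 in HCC827, and 2 and 4 were higher. These shares are at or below those of all detected genes (9.22% lower and 7.84% higher in PC-9, 9.83% lower and 14.8% higher in HCC827), and the genes are named as a description. The PC-9 gene was ACSL5, a fatty acid activating enzyme, at 8.53 with erlotinib against 9.83 in the control, while in HCC827 it stood at 11.47 with erlotinib against 11.40. FABP5, a fatty acid binding protein, was 2.35-fold lower with erlotinib in HCC827, and neither PC-9 array of it was above the negative controls. The lower genes in HCC827 also included SCARB1 and ME1, and the higher ones ACSL1 and PGD beside ABCA1 and SCD5. With EGF in H322 1 of the 36 was lower, the sterol exporter gene ABCG1, at 7.62 with EGF against 8.32 in the control, and 0 were higher.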

How the data were processed

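Biotinylated cRNA made from total RNA was hybridised to Clarion S arrays, per the labels. The authors deposited linear probe set intensities, and the submitters' processing notes name Affymetrix Expression Console. How it corrected background, summarised probes and scaled arrays was not given in the sources used here. Array medians lay between 148 and 157, so a change shared by most genes would not be seen.

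From these, log2(value + 1) was computed. Gene symbols came from the platform annotation (17709 of 24351 probe sets with 1 symbol, 0 with several, 6642 with none; the brightest was kept for the 20 symbols with several probe sets). The 612 negative control probe sets gave the background. Erlotinib was tested with limma 3.58.1 in R 4.3.3 (lmFit, eBayes with a trend on level, cell line as a block, two-sided, Benjamini-Hochberg over 17687 genes at 0.05). Cell line pairs the arrays: across genes, log2 levels of treated and control arrays correlated at 0.991 in PC-9 and 0.988 in HCC827, and the PC-9 and HCC827 controls with each other at 0.907. Of the degrees of freedom, 1 is residual and 6.58 are borrowed from other genes, so SE and p rest mostly on the spread of other genes. For each gene, the residual spread is the difference between the PC-9 and HCC827 changes. The labels do not name separate cultures, so p-values do not measure the spread between repeat cultures of a line. Part of the spread may be technical. Precision is limited by how few arrays there are.

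The genes and lists were chosen with earlier results of these data known. Every gene on the list is accounted for. Values on every array are given for genes past the limma threshold or at least 1.5-fold changed in a line, the 4 highest and 4 lowest mean changes, the 3 widest ranges over control arrays, and SREBF1, SREBF2, INSIG1, HMGCS1, FASN and SCD. Of the other pathway genes, those past the threshold, or with up to 3 of the largest changes in a line among those at least 1.5-fold changed and detected, are described, and SCARB1, ME1, ACSL1 and PGD were named after their values were seen. DUSP6, FOSL1 and EGFR checked the treatment. In 5 simulated sets of 17687 genes with 200 changed, limma called 53.2% of genes changed 2-fold and 97.8% of those changed 4-fold, and 13.9% of calls were false. Alternatives are given in the closing section.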

Additional observations from a re-analysis of the deposited data

Results flagged for a closer look

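MVK was the 1 gene with changes of opposite sign, each at least 0.32 on the log2 scale, in the EGFR-mutant lines with erlotinib, at 0.62 in PC-9 and -0.39 in HCC827. The difference between the lines was not tested.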

How the results depend on the processing

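Limma called 262 genes in all, 166 with an offset of 16, 535 with each array centred on its median, 806 after quantile normalization, 96 when only genes exceeding the negative controls on 1 or more of the 4 arrays were tested and 156 when they had to exceed them on all 4 (chosen after seeing the data), 1115 with dim signals raised to the negative control level, 1 without a trend of the spread on level and 0 with no replicate block, where 186 genes had an unadjusted p under 0.05. Of the 30 genes, 2 fell past the threshold with centring and with quantile normalization (ELOVL6 and INSIG2), 4 with dim signals raised (these with HMGCS1 and SQLE), and 0 without the trend or without the block (limma, with 3 and 0 at an unadjusted p under 0.05). None rose past it in any of the 11 alternative fits. Of the other pathway genes 2 were called with centring, with quantile normalization and with dim signals raised (ABCA1 and SCD5), and 1, ABCA1, with all 6 arrays in the fit. The cause of these shifts was not tested. FDPS had a mean change of 0.00108 after quantile normalization and ABCG1 -0.17 with dim signals raised, each opposite in sign to its value as reported, and neither was called. At a log2 change of 0.32, in place of 1.5-fold, 5 genes were lower and 1 was higher in PC-9, 9 were lower and 1 higher in HCC827, and 2 were higher in H322, and at 2-fold 0 were higher in PC-9. The medians of the sterol genes, of the fatty acid genes and of the regulators moved by less than 0.1 in any line under the offset, scaling and dim signal alternatives. With dim signals raised, the median change of all named genes was -0.35 in HCC827 and -0.34 in H322, where it was 0.01 (H322) and -0.005 (HCC827) as reported. Each dim signal there takes its own array's negative control level. That level was 7.27 in the HCC827 control and 6.92 with erlotinib, and 7.47 in the H322 control and 7.13 with EGF. Genes dim on both arrays of a pair then take the difference of these levels as their change. Leaving out a line leaves 1 pair and no test: ELOVL6 then had -1.64 (PC-9 alone) and -1.23 (HCC827 alone). The pairing by cell line is thus part of the test as reported.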
